A study of Mus musculus with 6 samples.

Results

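Adrb1, Adrb3, Adra1a, Adra2a, Gpr3, Gnas, Adcy3, Prkar2b and Pde3b, 9 genes of adrenergic receptors and cAMP signaling, were examined in the brown adipose tissue (BAT) of sST2-KO mice and WT mice. They were chosen by their symbols, with earlier results of these data known. They represent the receptors, the stimulatory G protein, an adenylyl cyclase, a subunit of protein kinase A (PKA) and a phosphodiesterase. They make up 9 of the 35976 genes counted. All 9 were among the 14542 genes that had enough counts to be tested. RNA-seq was performed on whole BAT of 3 sST2-KO mice and 3 WT littermates, male C57BL/6J mice 10 weeks old. The sST2-KO mice lacked, in the germline, the intron of Il1rl1 that follows exon 8, cut out by CRISPR/Cas9, which is meant to remove the soluble form of the receptor ST2 and to leave the membrane form. Mice of both groups had undergone surgical denervation of BAT and cold exposure at 10 °C for 8 h, so neither an innervated nor a warm group was part of the comparison. On GRCm39, Adrb1 lies at chr19:56710631-56721545, Adrb3 at chr8:27715443-27740925, Adra1a at chr14:66872700-67012152, Adra2a at chr19:54032582-54037413 and Gpr3 at chr4:132936650-132940688. Gnas lies at chr2:174126022-174188537, Adcy3 at chr12:4182969-4263527, Prkar2b at chr12:32008448-32111363 and Pde3b at chr7:114013685-114138486. All but Adra1a and Prkar2b overlap exons of a gene on the opposite strand. The question was which genes between norepinephrine and PKA differed in BAT when sST2 was missing.

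Norepinephrine from sympathetic nerves, or from the blood where the nerves are cut, binds β-adrenergic receptors on brown adipocytes. These receptors act through Gs, whose α subunit is encoded by Gnas, on adenylyl cyclase, which makes cAMP. cAMP releases the catalytic subunits of PKA from their regulatory subunits, and PKA then drives lipolysis and the transcription of Ucp1, the uncoupling protein that turns fuel into heat. Phosphodiesterases break down cAMP, α2 receptors restrain the cyclase through Gi, and α1 receptors act through Gq and calcium.

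The libraries held 8159442 to 12874809 counts. Levels are normalized CPM (counts scaled to a common library size by TMM) and are listed in the order of replicates 1 to 3. The p-values of fold changes come from the quasi-likelihood test of edgeR and were adjusted by Benjamini-Hochberg over all genes tested, and a gene passed at an adjusted p under 0.05. The targeted gene Il1rl1 had 1.77, 1.79 and 0.740 CPM in the WT libraries and 3.83, 8.19 and 14.0 CPM in the sST2-KO libraries, a log2 fold change of 2.56 (SE 0.57, adjusted p = 0.0239). In sST2-KO replicate 3, mitochondrial genes held 6.80% of the counts, against 11.8% to 16.6% in the other 5, and the part of this difference in any result was not tested. The counts of Il1rl1 add up both forms of the receptor and thus do not check the genotype. Without WT replicate 1, 2 or 3 or sST2-KO replicate 3 the adjusted p of Il1rl1 was 0.0515, 0.0658, 0.0936 and 0.0541.

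Of the 9 genes, Gnas, Adcy3, Prkar2b and Pde3b fell in sST2-KO mice, and the 5 receptor genes did not pass. None rose, by edgeR, by DESeq2 or at an unadjusted p under 0.05 (0 in each). Among all genes tested, 9.10% passed as lower and 10.5% as higher. The groups did not overlap in 5 of the 9 genes, each lower in sST2-KO mice, while 41.5% of all genes had no overlap in either direction. Their median log2 fold change was -1.39, beside 0.03 for all genes tested. In bulk tissue, fewer cells of a type and less RNA per cell cannot be told apart.

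**Figure D1:**
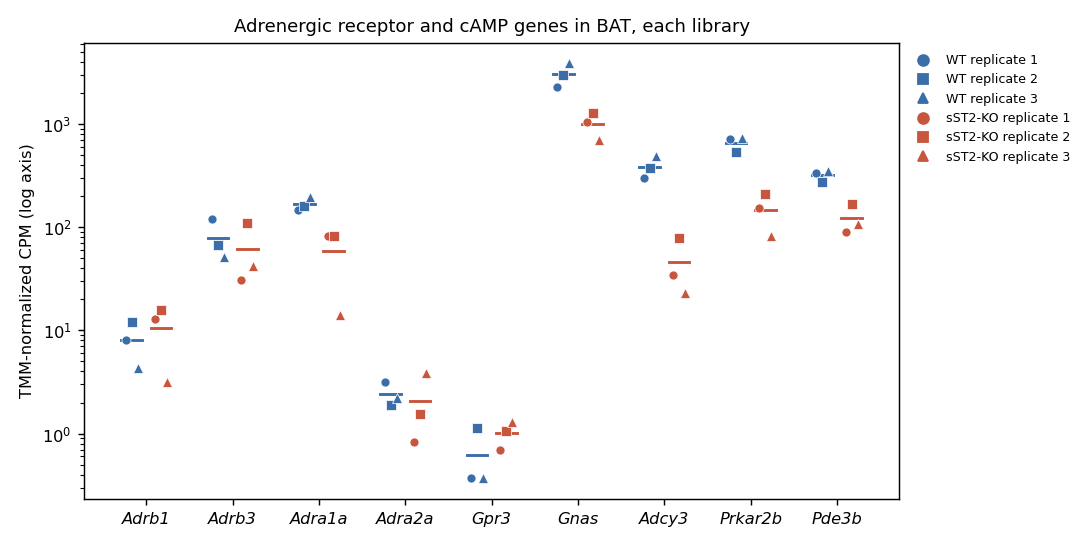
Level of each of the 9 genes in every library, in TMM-normalized CPM on a log axis, with WT libraries in blue and sST2-KO libraries in red; marker shapes give the replicate number and horizontal bars the group means. The WT and sST2-KO points of Adra1a, Gnas, Adcy3, Prkar2b and Pde3b lie apart, whereas those of Adrb1, Adrb3, Adra2a and Gpr3 overlap. For Adra1a, Gnas, Adcy3, Prkar2b and Pde3b the WT means are 168, 3035, 387, 661 and 318 CPM. Their sST2-KO means are 59.4, 1010, 45.6, 148 and 122 CPM.

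Neither of the β receptor genes among the 9 passed the test. Adrb3, the β3 receptor that marks rodent adipocytes, had 118.9, 67.7 and 51.8 CPM in the WT libraries and 30.6, 110.6 and 42.2 CPM in the sST2-KO libraries. The highest value of each group was more than 2 times its lowest, and sST2-KO replicate 2 lay above 2 of the 3 WT libraries. Its log2 fold change was -0.38 (95% interval -1.58 to 0.81, adjusted p = 0.629). This interval holds a fall to less than 0.5 of the WT level as well as a rise, so these libraries do not show that Adrb3 was alike in both groups. Without WT replicate 1 the log2 fold change was 0.03.

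Adrb1, the β1 receptor, had 8.02, 11.97 and 4.32 CPM in the WT libraries. In sST2-KO replicates 1 to 3 it had 13.0, 15.9 and 3.16 CPM. Replicate 3 was the lowest library of either group, and the groups overlapped. The log2 fold change was 0.39 (95% interval -0.999 to 1.78, adjusted p = 0.675), and without sST2-KO replicate 2 it was -0.03. The ratio of Adrb3 to Adrb1 counts within a library was 14.8, 5.65 and 12 in WT replicates and 2.36, 6.96 and 13.3 in sST2-KO replicates, which differed by -0.73 on the log2 scale (exact two-sided permutation test, p = 0.6, adjusted over 3 ratios 0.6). Without sST2-KO replicate 1 the difference was -0.06. With 3 libraries against 3, this test cannot give a p below 0.1.

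Adra1a, an α1 receptor that acts through Gq, had the widest gap of the receptor genes. It had 146.1, 161.4 and 195.4 CPM in the WT libraries and 81.6, 82.4 and 14.1 CPM in the sST2-KO libraries. The groups did not overlap, and sST2-KO replicate 3 lay far below the other sST2-KO libraries. The log2 fold change of -1.50 (SE 0.58, 95% interval -2.84 to -0.16) did not pass over all genes (adjusted p = 0.105). Without sST2-KO replicate 3 the difference was smaller but passed, at -1.04 (adjusted p = 0.0351), and DESeq2 gave -1.52 (adjusted p = 0.0275).

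Adra2a, the α2 receptor that acts through Gi, had 3.17, 1.89 and 2.22 CPM in the WT libraries and 0.836, 1.54 and 3.85 CPM in the sST2-KO libraries. Here sST2-KO replicates held both the lowest and the highest value. The log2 fold change was -0.24 (95% interval -1.57 to 1.09, adjusted p = 0.794), and it was 0.02 with scaling by total counts. Gpr3, a Gs-coupled receptor that signals without a ligand and whose transcript is known to be induced by cold in BAT, had the fewest counts of the 9 genes, with 4, 12 and 3 counts in the WT libraries and 10, 9 and 13 counts in the sST2-KO libraries. In CPM these were 0.373, 1.13 and 0.370 against 0.697, 1.07 and 1.28, so that WT replicate 2 lay within the sST2-KO range. The log2 fold change was 0.65 (95% interval -0.67 to 1.96, adjusted p = 0.449).

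Gnas, the gene of Gsα, was lower in every sST2-KO library. It had 2270, 2966 and 3869 CPM in the WT libraries and 1052, 1281 and 697.9 CPM in the sST2-KO libraries. The lowest WT library held 1.77 times the highest sST2-KO library. Its mean fell from 3035 ± 802 to 1010 ± 294 CPM (SD, n = 3 each), a log2 fold change of -1.59 (SE 0.36, adjusted p = 0.0249), or 3.00-fold lower. It ranked at 31 of all tested genes by mean abundance, so counting noise is small beside the spread between mice. The call was lost without WT replicate 2 or 3 or sST2-KO replicate 1 or 3 (adjusted p = 0.0706, 0.0994, 0.0584 and 0.0536), while the log2 fold change stayed between -1.81 and -1.38. Gnas has several promoters with imprinted transcripts, and the antisense gene Gnasas1 overlaps it. The use of strand in the counting is not given in the sources used here, so its counts may hold reads of more than Gsα.

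Gnai2, a Gi α subunit, went the other way without passing, from 285 ± 25.9 to 460.5 ± 81.0 CPM (SD, n = 3 each; log2 fold change 0.69, adjusted p = 0.0671). The ratio of Gnas to Gnai2 counts within a library was 8.43, 9.42 and 14.3 in WT replicates and 2.77, 2.78 and 1.29 in sST2-KO replicates. All 3 sST2-KO ratios lay below the WT ratios, 4.85-fold lower on average. The exact two-sided permutation test gave its smallest p of 0.1 (adjusted over 3 ratios 0.15).

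Adcy3, an adenylyl cyclase known for its part in adipose tissue, had the largest fall of the 9 genes. It had 303.1, 372 and 486.1 CPM in the WT libraries and 34.6, 79.2 and 23.1 CPM in the sST2-KO libraries. The groups were far apart, with the lowest WT value 3.83 times the highest sST2-KO value. Its mean fell from 387 ± 92.5 to 45.6 ± 29.6 CPM (SD, n = 3 each), 8.49-fold lower, with a log2 fold change of -3.09 (SE 0.48, adjusted p = 0.0136). The log2 fold change stayed between -3.76 and -2.77 with any library left out, and the call was lost without WT replicate 3 (adjusted p = 0.0610). Cenpo overlaps Adcy3 on the opposite strand.

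Prkar2b, the RIIβ regulatory subunit through which fat cells hold PKA in its inactive form, was lower by 4.47-fold. It had 711.6, 541.3 and 730.1 CPM in the WT libraries and 152.4, 208.8 and 82.0 CPM in the sST2-KO libraries. No sST2-KO library reached the WT range, and sST2-KO replicate 3 was again the lowest. The mean fell from 661 ± 104 to 148 ± 63.6 CPM (SD, n = 3 each; log2 fold change -2.16, SE 0.37, adjusted p = 0.0150), with loss of the call without WT replicate 3 (adjusted p = 0.0646). Prkar1a, the RIα subunit found in most cells, had a smaller difference that did not pass, from 377 ± 33.1 to 275.2 ± 49.1 CPM (SD, n = 3 each; log2 fold change -0.45, adjusted p = 0.186). Prkar2b counts were 2.09, 1.41 and 1.80 times those of Prkar1a in WT replicates and 0.696, 0.676 and 0.275 times in sST2-KO replicates. Thus Prkar2b had more counts than Prkar1a in every WT library and fewer in every sST2-KO library, a difference of -1.78 on the log2 scale (exact two-sided permutation test, p = 0.1, adjusted over 3 ratios 0.15).

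Pde3b, the phosphodiesterase through which insulin lowers cAMP in adipocytes, had 334, 271.5 and 348 CPM in the WT libraries and 90.7, 167.8 and 106.6 CPM in the sST2-KO libraries. The groups did not overlap, and sST2-KO replicate 2 came closest to the WT libraries. Its mean fell from 318 ± 40.7 to 122 ± 40.7 CPM (SD, n = 3 each), 2.61-fold lower (log2 fold change -1.39, SE 0.28, adjusted p = 0.0191). The adjusted p was 0.0787 without WT replicate 3 and 0.0506 without sST2-KO replicate 3. Adcy3, which makes cAMP, and Pde3b, which breaks it down, were thus both lower, and cAMP itself is not measured by RNA-seq.

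**Figure D2:**
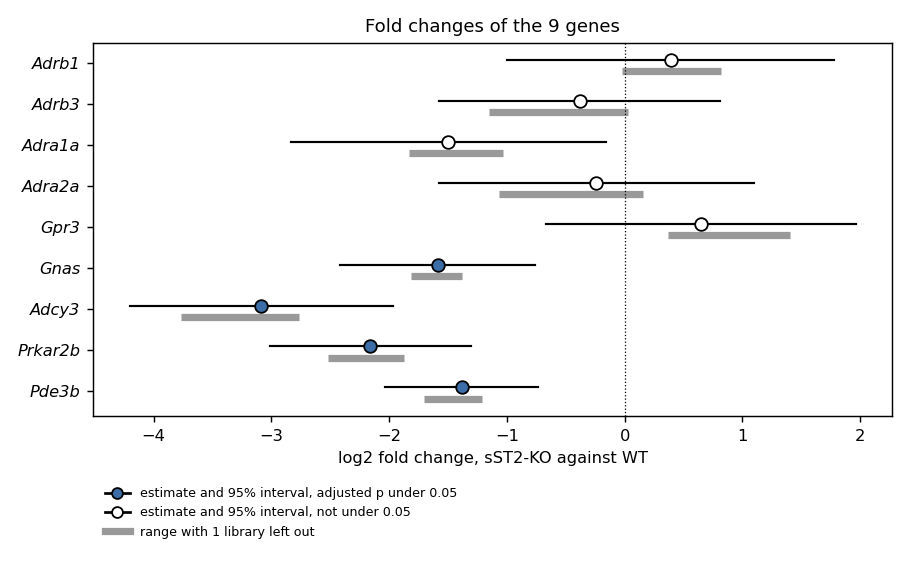
Log2 fold change of each of the 9 genes, sST2-KO against WT, with its 95% interval (black line) and the range of estimates with 1 library left out (grey bar); filled points have an adjusted p under 0.05. The intervals of Gnas, Adcy3, Prkar2b and Pde3b lie below 0, that of Adra1a ends at -0.16 and its adjusted p is 0.105, and those of the other 4 genes span 0.

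The sequences before the starts of 2 genes that fell and of a receptor gene that did not pass are shown, since the cAMP response element (CRE) is the DNA motif through which CREB answers PKA. They are on GRCm39, 5′ to 3′ on the strand of the gene, and leave out bases that annotated exons cover. Capitals mark the short form of the motif, TGACG, on either strand. The Adcy3 stretch is chr12:4182783-4182968 on the plus strand, the Prkar2b stretch chr12:32111364-32111613 on the minus strand and the Gpr3 stretch chr4:132939848-132940097 on the minus strand.
Adcy3: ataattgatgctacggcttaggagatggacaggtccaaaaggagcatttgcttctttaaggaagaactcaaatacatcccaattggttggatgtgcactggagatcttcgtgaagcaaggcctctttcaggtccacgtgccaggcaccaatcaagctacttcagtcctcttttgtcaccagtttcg
Prkar2b: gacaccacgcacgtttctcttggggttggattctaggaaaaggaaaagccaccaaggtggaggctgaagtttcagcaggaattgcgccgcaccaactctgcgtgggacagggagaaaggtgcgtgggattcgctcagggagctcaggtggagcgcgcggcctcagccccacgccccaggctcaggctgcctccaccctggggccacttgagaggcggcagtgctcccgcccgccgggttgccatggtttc
Gpr3: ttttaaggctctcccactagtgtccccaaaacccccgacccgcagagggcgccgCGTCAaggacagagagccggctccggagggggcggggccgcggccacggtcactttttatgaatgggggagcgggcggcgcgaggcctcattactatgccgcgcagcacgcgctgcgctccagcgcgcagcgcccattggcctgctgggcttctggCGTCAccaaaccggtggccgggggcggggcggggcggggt
In the window from 250 bases before to 50 after the start of the canonical transcript, the full CRE, TGACGTCA, was found in 0 of the 9 genes and in 2.44% of 21770 promoters of protein-coding genes. The short form, which the full motif contains, was found in 5 of the 9 windows, those of Adrb1, Adra1a, Gpr3, Adcy3 and Pde3b, and in 22.6% of all promoters. In Adcy3 it lies at -26 from the start, in bases that an exon of another transcript covers and that are not shown. Adcy3 and Pde3b fell and hold it, Gnas and Prkar2b fell and do not. For Gnas only the start of its canonical transcript was searched (window chr2:174139402-174139701), which is 1 of several. Whether Gsα is transcribed from this start was not examined, so the promoter of Gsα may not have been searched. A match is a match of letters and does not show binding.

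Levels of different genes were compared per kb of the canonical transcript (CPM per kb). In WT mice Gnas stood first with 807 CPM per kb, followed by Prkar2b with 190.7, Adcy3 with 76.7, Pde3b with 47.9, Adra1a with 38.3, Adrb3 with 18.6, Adrb1 with 2.75, Adra2a with 0.640 and Gpr3 with 0.560. The ranges of Pde3b and Adra1a overlapped, as did those of Adra2a and Gpr3. In sST2-KO mice Gnas was still first with 268.7 CPM per kb, and the ranges of all neighbors below it overlapped. Adcy3 had 9.05 CPM per kb in sST2-KO mice, below the means of Pde3b (18.3), Adrb3 (14.3) and Adra1a (13.6). With the length of all exons in place of the canonical transcript, Adra1a fell behind Adrb3 in WT mice (8.32 against 13.9, with overlapping ranges). Most of the exon length of Adra1a belongs to other isoforms. By that length the ranges of Pde3b and Adcy3 in sST2-KO mice did not overlap. The mean of Adcy3 in sST2-KO mice (3.68) then lay above that of Adra1a (2.95), and the WT ranges of Adra2a and Gpr3 did not overlap.

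The other genes of the pathway were taken as 11 lists of 107 genes, of which 96 were tested. Of these, 9 passed as higher, 14 passed as lower and 73 did not pass, with a median log2 fold change of -0.04. Over all genes tested, 10.5% passed as higher and 9.10% as lower, and the lists were chosen with earlier results of these data known. The split of the calls depended on scaling. With total counts in place of TMM, which moved the median of all genes from 0.03 to 0.29, 15 were higher and 11 lower. The calls also rested on single libraries, with 1 higher and 1 lower without WT replicate 2, 0 and 0 without WT replicate 3 (where 58 of all genes passed by edgeR, and 3797 had an unadjusted p under 0.05), and 3 and 8 without sST2-KO replicate 3. All 23 genes kept their direction in each of these fits.

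The calls on the receptor side stand beside 10.5% of all genes tested that passed as higher and 9.10% as lower. Of 9 genes of norepinephrine synthesis and removal, 5 were tested and 0 passed (edgeR; 0 also at an unadjusted p under 0.05 and by DESeq2). Th and Dbh, named after their values were seen, which make norepinephrine and are expressed by sympathetic neurons, had 0 counts in every WT library and at most 3 counts in a sST2-KO library. No innervated group was sequenced, so these counts do not show what denervation changed. Among 9 tested Gs-coupled receptors 1 passed, Adora2a, an adenosine receptor, which fell from 61.9 ± 8.96 to 27.1 ± 13.1 CPM (log2 fold change -1.19, adjusted p = 0.0455). Among 7 Gi-coupled receptors Hcar2, the receptor of niacin and β-hydroxybutyrate, which macrophages also express, rose from 13.7 ± 4.16 to 38.2 ± 19.6 CPM (log2 fold change 1.48, adjusted p = 0.0424). S1pr1, an endothelial receptor with the highest mean CPM of this list in both groups, was at 350.6 ± 22.5 and 329.7 ± 147 CPM (adjusted p = 0.869).

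Of 15 G protein subunits and receptor regulators, 4 rose and 0 fell (edgeR; 0 also fell at an unadjusted p under 0.05 and by DESeq2), with a median log2 fold change of 0.43. Those that rose were Arrb2 and Arrb1, the β-arrestins that uncouple receptors (1.25 and 0.75, adjusted p = 0.0398 and 0.0344), Grk6, a receptor kinase (1.01, adjusted p = 0.0193), and Gng12, a γ subunit (0.74, adjusted p = 0.0282). Arrb1 and Gng12 were named after their values were seen. By their estimates, 10 of the 15 genes were higher and 5 lower. The lower ones included Rgs2 and Grk3, also named after their values were seen. These 2 genes did not pass (log2 fold changes -0.96 and -0.88, adjusted p = 0.141 and 0.156). The calls stand beside 10.5% of all genes tested that passed as higher and 9.10% as lower. Arrb2 had 32.8, 36.2 and 26.6 CPM in the WT libraries and 61.3, 48.8 and 116.7 CPM in the sST2-KO libraries, so the highest value was again in sST2-KO replicate 3.

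Among 6 tested cyclases other than Adcy3, Adcy6 fell from 185.2 ± 6.45 to 74.7 ± 29.1 CPM (log2 fold change -1.31, adjusted p = 0.0292) and Adcy7, the cyclase of blood cells, rose from 16.5 ± 4.77 to 41.4 ± 13.9 CPM (log2 fold change 1.32, adjusted p = 0.0266). Of 12 other PKA subunits, inhibitors and anchors, 2 rose and 1 fell, beside 10.5% higher and 9.10% lower over all genes tested. Prkaca, the main catalytic subunit, had 185.5, 253.6 and 236.1 CPM in the WT libraries and 80.1, 128.8 and 76.3 CPM in the sST2-KO libraries (log2 fold change -1.24, SE 0.27, adjusted p = 0.0220). Both genes that rose encode inhibitors of the catalytic subunit. Pkia had 7.09, 2.17 and 2.22 CPM in the WT libraries and 15.1, 13.4 and 52.1 CPM in the sST2-KO libraries (log2 fold change 2.80, adjusted p = 0.0330), and Pkib went from 0.737 ± 0.664 to 6.66 ± 4.14 CPM (log2 fold change 3.11, adjusted p = 0.0274). Without sST2-KO replicate 3 the log2 fold changes of Pkia and Pkib were 1.87 and 2.50 (adjusted p = 0.0694 and 0.0625). Pkia is known to be abundant in skeletal muscle, whose marker genes were also highest in that library, and the part of muscle in this rise was not tested. Akap12, a PKA anchor with a higher mean CPM over the 6 libraries than the rest of the list, though in WT mice below Prkar1a, did not pass (0.73, adjusted p = 0.395). Of 4 other cAMP effectors, Rapgef3, the exchange factor Epac1, fell (log2 fold change -0.93, adjusted p = 0.0270).

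Among all genes tested, 9.10% passed as lower and 10.5% as higher. Of 13 other phosphodiesterases, 5 fell, 1 rose and 7 did not pass, with a median log2 fold change of -0.67. Pde4d had the highest mean CPM of them in both groups, with 295, 547.2 and 703.6 CPM in the WT libraries and 117.9, 255.1 and 163.7 CPM in the sST2-KO libraries (log2 fold change -1.53, adjusted p = 0.0389). Pde4a and Pde4c, of the same cAMP-specific family, fell by 2.27 and 1.76 on the log2 scale (adjusted p = 0.0147 and 0.0297). The other members that fell, named after their values were seen, were Pde3a, the closest relative of Pde3b, and Pde8a (log2 fold changes -1.75 and -0.67, adjusted p = 0.0203 and 0.0308). Against these, Pde4b, the form that leukocytes use most, had 43.2, 67.0 and 48.1 CPM in the WT libraries and 108.9, 156.2 and 217.5 CPM in the sST2-KO libraries. Its groups did not overlap, and its log2 fold change was 1.61 (SE 0.30, adjusted p = 0.0169). The PDE4 family therefore moved in both directions, 3 members down and 1 up. Pde4a and Pde4b kept their calls without any single library other than WT replicate 3, where the adjusted p was 0.0610 and 0.0789.

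**Figure D3:**
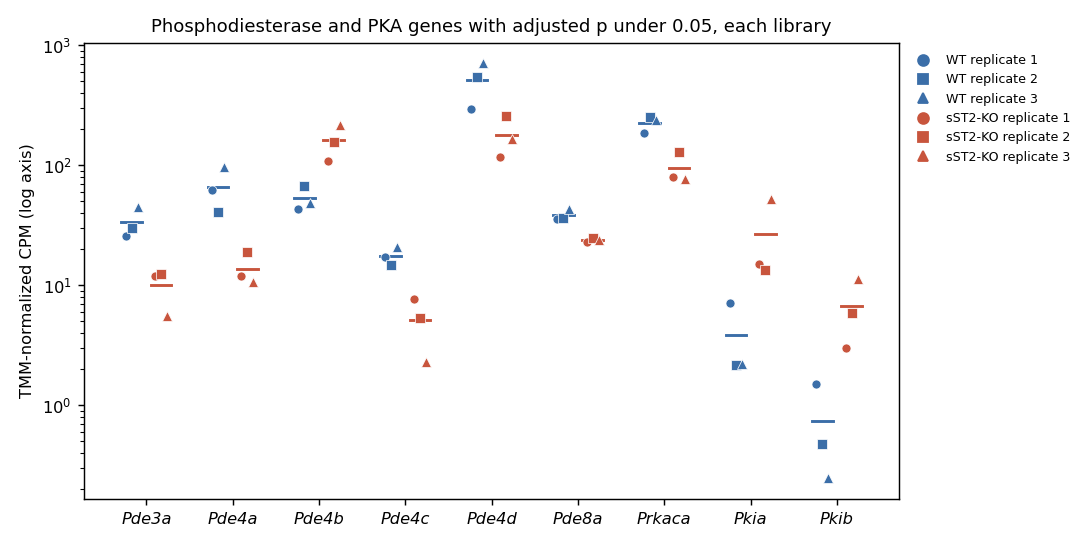
Level of the phosphodiesterase and PKA genes with an adjusted p under 0.05, other than Prkar2b and Pde3b, in every library, in TMM-normalized CPM on a log axis, with WT libraries in blue and sST2-KO libraries in red and bars at the group means. Pde4b, Pkia and Pkib lie higher in all 3 sST2-KO libraries, and Pde3a, Pde4a, Pde4c, Pde4d, Pde8a and Prkaca lie lower.

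At the end of the pathway, of 10 PKA substrates of lipolysis and cAMP target genes, 4 fell, 0 rose and 6 did not pass. At an unadjusted p under 0.05 and by DESeq2, 0 rose as well, and DESeq2 called 7 lower. The median log2 fold change was -1.24, with 8 genes lower and 2 higher by their estimate. Over all genes tested, 9.10% passed as lower and 10.5% as higher. Ucp1 had 5229, 6460 and 10520 CPM in the WT libraries and 160.4, 1042 and 153.2 CPM in the sST2-KO libraries (log2 fold change -4.04, adjusted p = 0.0226). Dio2, the deiodinase that makes active thyroid hormone, was at 547.4, 801.5 and 639.2 CPM in the WT libraries and at 17.3, 192.0 and 47.3 CPM in the sST2-KO libraries (log2 fold change -2.96, adjusted p = 0.0404). As in Adcy3 and Prkar2b, sST2-KO replicate 2 was the highest of its group. The other genes that fell, named after their values were seen, were Ppargc1a, a coactivator of mitochondrial genes, and Abhd5, which activates the lipase ATGL (log2 fold changes -2.20 and -1.17, adjusted p = 0.0167 and 0.0201). Lipe, the hormone-sensitive lipase that PKA phosphorylates, and Plin1, the lipid droplet coat, both also named after their values were seen, did not pass (-0.87 and -1.53, adjusted p = 0.127 and 0.0558). The 2 genes with higher estimates, Nr4a1 and Per1, were named after their values were seen and did not pass. Their log2 fold changes were 0.99 and 0.34 (adjusted p = 0.196 and 0.311). The groups overlapped for Nr4a1 and not for Per1. Of 13 genes of the CREB family and its coactivators, 1 passed, Atf2 (log2 fold change -0.85, adjusted p = 0.0195). Sik2, a kinase that restrains the CREB coactivators, did not pass (-1.11, adjusted p = 0.0554).

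**Figure D4:**
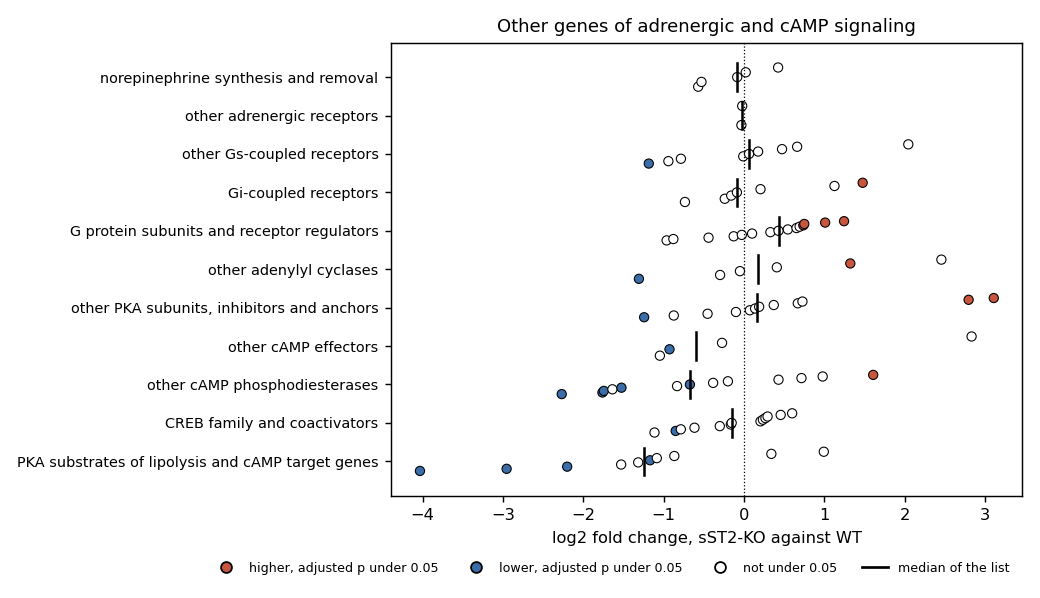
Log2 fold change, sST2-KO against WT, of the 96 tested genes of the 11 pathway lists, with genes that passed as higher in red, those that passed as lower in blue and the others open; vertical bars are list medians. The phosphodiesterases and the PKA substrates and targets have their medians at -0.67 and -1.24, and the G protein and regulator list at 0.43.

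Marker lists of cell types were compared as well. Over all 14542 genes tested, 10.5% passed as higher, 9.10% passed as lower and 41.5% had no overlap in either direction. By edgeR, 5269 of these genes had an unadjusted p under 0.05. The summed level of 10 adipocyte markers was 26050, 25690 and 31170 CPM in the WT libraries and 15460, 15330 and 9044 CPM in the sST2-KO libraries. All 10 were lower by their estimate and 3 passed, with a median log2 fold change of -0.65. Those that passed fell by 1.24 to 2.22 on the log2 scale, with Adipoq and Acsl1 at the ends of this range. Of 10 macrophage markers 9 were higher by their estimate and 3 passed, while the groups overlapped in 5 of the 10. The sum of the macrophage markers was 685 to 978.8 CPM in WT and 1308 to 5828 CPM in sST2-KO libraries, with the highest in sST2-KO replicate 3. Of 9 tested T cell markers 8 rose, and their sum was 15.49 to 16.96 CPM in WT and 134 to 168.9 CPM in sST2-KO libraries. The 10 skeletal muscle markers summed to 4.81 to 1087 CPM in WT and 3149 to 13610 CPM in sST2-KO libraries, each without overlap but with 0 passing by edgeR, 2 by DESeq2 and 8 at an unadjusted p under 0.05. Endothelial markers had a median of 0.06, with sums of 1723 to 2164 CPM in WT and 1488 to 2748 CPM in sST2-KO libraries. Schwann cell and nerve markers summed to 95.8 to 108.8 CPM in WT and 43.5 to 76.5 CPM in sST2-KO libraries, with S100b, which brown adipocytes also express, and Sox10 passing as lower. Fibroblast and smooth muscle lists had medians of -0.44 and -0.49 with overlapping sums, and 0 fibroblast genes passed (1 at an unadjusted p under 0.05 and 1 by DESeq2, lower). In the smooth muscle list 9 of 10 genes were lower by their estimate, and the 1 that passed, Des, rose (log2 fold change 2.74, adjusted p = 0.0335). Des, named after its value was seen, had 208, 62.3 and 134 CPM in the WT libraries and 772, 289 and 1635 CPM in the sST2-KO libraries. The skeletal muscle sums by library were 1087, 18.7 and 4.81 CPM in WT and 5896, 3149 and 13610 CPM in sST2-KO. The part of skeletal muscle in the rise of Des was not tested. Liver genes summed to 6570 CPM in WT replicate 2 and to 127.2 to 482.8 CPM in the other 5 libraries. What part these differences have in the lower level of Gnas, Adcy3, Prkar2b and Pde3b was not tested. Without WT replicate 2 and sST2-KO replicate 3 together, Adcy3 and Prkar2b still passed and Gnas and Pde3b did not (adjusted p = 0.0967 and 0.0703).

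**Figure D5:**
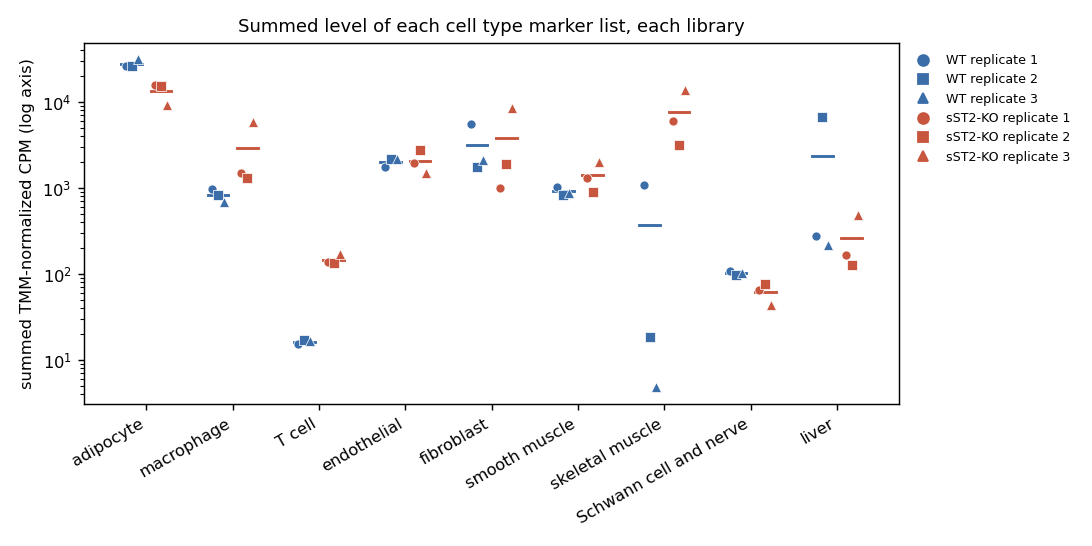
Summed TMM-normalized CPM of each cell type marker list in every library on a log axis, with WT libraries in blue and sST2-KO libraries in red and bars at the group means. Adipocyte sums are lower in all 3 sST2-KO libraries, macrophage, T cell and skeletal muscle sums are higher, and WT replicate 2 stands out in liver genes with 6570 CPM.

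Genes with the most similar pattern were sought among 11666 genes by Pearson's correlation of log2 CPM over the 6 libraries, as a description. For Pde3b these were Aspa (0.995), Gnb5 (0.995), Stc2 (0.995), Mrps22 (0.994) and Ganab (0.992), whose log2 fold changes lay between -2.25 and -0.49. For Adrb3 they were Sft2d2 (0.982), Nfya (0.976), Etnk1 (0.9748), Trp53bp1 (0.972) and Gm38529 (0.955), all within -0.36 to -0.06 on the log2 scale. For Gpr3, whose counts are too few for such a comparison to carry weight, they included Ino80e, Scly, Dusp19 and Snd1 (0.988 to 0.993). The 6 libraries share the contrast between groups and the depth of each library.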

How the data were processed

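RNA-seq of BAT was performed on 3 WT and 3 sST2-KO mice, with groups and replicate numbers taken from the titles of the samples. The submitters' processing notes name FastQC 0.12.1, HISAT2 2.2.1 and mm39, and the methods name htseq-count, whose version and strand setting are not given in the sources used here. The deposited table holds raw counts per gene symbol, which the authors did not normalize, with 0 unused columns of sample values. Libraries held 8159442 to 12874809 counts.

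Genes kept by filterByExpr were tested in R 4.3.3 with edgeR 4.0.16 (TMM, glmQLFit, glmQLFTest, no covariate). Each SE is the estimate over the root of its F statistic, and the 95% interval uses the t distribution with the test's degrees of freedom. The p-values of fold changes set the group difference against the spread between mice of the same group. For this spread edgeR also draws on the other genes. Grk2 and Grk3 were matched by older symbols. Members, lists and tests were chosen with earlier results of these data known. Named were the 9 genes, Il1rl1 and, per pathway list, up to 2 passing genes with the largest change in each direction and the gene with the highest mean CPM over the 6 libraries (other names are marked in the text); for Adrb3, Gpr3 and Pde3b, also the 5 most similar genes. Results of 3 genes that this rule named are not reported here. Same-group libraries were compared and none was a copy. Deviations of same-numbered libraries correlated at -0.05, 0.22 and -0.30, so no pairing by number was assumed.

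Alternatives were a replicate block, each library left out, DESeq2 1.42.0, scaling by total counts or RLE factors, a filter of 10 counts in each library or none, a fold change above 2 and robust estimation. Positions, exons and promoter sequences are from the GRCm39 genome and GENCODE annotation. Steps were tested on simulated data. Figures used matplotlib 3.10.9.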

Additional observations from a re-analysis of the deposited data

How the results depend on the processing

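With 4 of the 9 genes passing as lower and 0 as higher, robust estimation, a fold change above 2, either other scaling (total counts or RLE factors) and either other filter (none, or 10 counts in each library) gave the same counts, and DESeq2 gave 5 lower genes, Adra1a added. With 1 library left out, 0 to 4 passed as lower. Without WT replicate 2 and sST2-KO replicate 3 together, a setting chosen after the marker sums were seen, 2 passed as lower. With the replicate block, 0 passed, as did 0 of all genes (4623 had an unadjusted p under 0.05), and Gnas, Adcy3, Prkar2b and Pde3b had an adjusted p of 0.0644 to 0.0880. The replicate numbers were not shown to pair the mice. Of the pathway genes, 9 higher and 14 lower in the test as described, DESeq2 called 14 higher and 19 lower, total counts 15 higher and 11 lower, the replicate block 0 and 0, and the setting without both libraries 2 higher and 4 lower. With 1 library left out, 0 to 9 were higher and 0 to 15 lower.

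Directions turned in 3 genes that passed in no setting. With 1 library left out, Adrb1 ranged from -0.026 (without sST2-KO replicate 2) to 0.818, Adrb3 from -1.15 to 0.025 (without WT replicate 1) and Adra2a from -1.067 to 0.156 (without sST2-KO replicate 1; 0.001 without WT replicate 1). Without WT replicate 2 and sST2-KO replicate 3 together, Adrb1 was 1.204 and Adra2a -1.234. Adra2a was 0.021 with total counts, which moved the median over all genes to 0.293. The other causes were not tested. The 3 ratios kept their direction with each library left out, but the Adrb3 to Adrb1 difference ranged from -1.306 (without sST2-KO replicate 3) to -0.057 (without sST2-KO replicate 1), and their exact test cannot pass with 3 libraries a group. Gpr3 could not be tested with at least 10 counts in every library. Gpr3 and Adra2a had 3 to 39 counts a library.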
